A study of Homo sapiens with 12 samples.

Results

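CD44, CD24, EPCAM, PROM1, MET, CXCR4 and ABCG2 encode surface proteins that have been used to sort cancer stem cells (CSCs) from pancreatic ductal adenocarcinoma, and their transcripts were followed in pancreatic cancer cells with and without knockdown of focal adhesion kinase (FAK). Every probe of the deposited array table that carries 1 of these 7 gene names was taken, which gave 12 of 47228 probes: 3 each for CD44 and CXCR4, 2 for CD24 and 1 each for EPCAM, PROM1, MET and ABCG2. Detection was set at a p under 0.05 against the negative control beads of the array. Of the 12 probes, 8 were detected in at least 2 arrays and were tested among 24207 probes in all. The tested probes belong to 5 genes, CD44, CD24, EPCAM, PROM1 and MET, and no probe of CXCR4 or ABCG2 passed.

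RNA came from MIA PaCa-2 and Capan-1, established lines derived from human pancreatic carcinomas, and was hybridised to Illumina HumanHT-12 v4 arrays. Each line carried a doxycycline-inducible hairpin in the PLKO.1 tet-on backbone, either the control shCtrl or 1 of 2 hairpins against FAK, sh1209 and sh1319, the latter written shFAK1319 in the Capan-1 labels. Doxycycline (50 ng/ml for 96 hours) was given to all 6 groups, controls included. Puromycin kept the hairpin under selection at 3.5 ug/ml in MIA PaCa-2 cells and at 1.5 ug/ml in Capan-1 cells. Each of the 12 arrays, 2 a group on a single chip, was made from 500 ng of RNA. Whether both arrays of 1 group stem from different cultures is stated neither in the labels nor in the methods, so the p-values measure the spread between these arrays, which may be technical. The cells were stable transduced lines, and whether they were clones is not stated in the sources used here.

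Array medians of the deposited intensity ran from 87.7 to 97, with 16259 to 19814 probes detected. Arrays of 1 group correlated at 0.991 to 0.994 across probes. PTK2, which encodes FAK, was lower in every hairpin group by its brighter probe, 450253, with log2 differences from shCtrl of -2.24 (sh1209) and -2.48 (sh1319) in MIA PaCa-2. In Capan-1 they were -0.61 and -1.78, and the -0.61 did not pass under median scaling of the arrays. The dimmer PTK2 probe, 2680750, passed the test in none of these 4 comparisons, with values of 0.31, -0.29, -0.46 and -0.46 in that order.

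These proteins do different work at the cell surface. CD44 is the main receptor for the matrix polymer hyaluronan and exists in many splice forms. CD24 is a small, heavily glycosylated protein held in the membrane by a lipid anchor, and it binds P-selectin and Siglec-10. EPCAM is an adhesion molecule of epithelial cells, and PROM1 (CD133) is a glycoprotein of membrane protrusions. MET is the receptor tyrosine kinase for hepatocyte growth factor (HGF), CXCR4 is the receptor for the chemokine CXCL12, and ABCG2 is a drug efflux transporter that exports the dye by which side population cells are recognised. Cells sorted from pancreatic tumours by CD44, CD24 and EPCAM together, or by PROM1, have been reported to start tumours more readily than the remaining tumour cells. The arrays measured RNA in bulk, not protein at the surface of sorted cells.

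In the RefSeq annotation of GRCh38.p14, EPCAM lies at chr2:47369311-47387020, CXCR4 at chr2:136114349-136118149, PROM1 at chr4:15968228-16084023, ABCG2 at chr4:88090264-88231626, CD24 at chr6:106969831-106976855, MET at chr7:116672196-116798377 and CD44 at chr11:35139171-35232402. The RefSeq promoter table held windows for 6 of the 7 genes. Each window spans 300 bases, most of them upstream of a transcript start, and the first listed window is shown for PROM1, CD24 and CD44, the genes whose RNA differed between the hairpins (below). They are PROM1 at chr4:16083974-16084273 (minus strand), CD24 at chr6:106975578-106975877 (minus strand) and CD44 at chr11:35138921-35139220 (plus strand), each written 5′ to 3′ with motif matches in capitals.
PROM1: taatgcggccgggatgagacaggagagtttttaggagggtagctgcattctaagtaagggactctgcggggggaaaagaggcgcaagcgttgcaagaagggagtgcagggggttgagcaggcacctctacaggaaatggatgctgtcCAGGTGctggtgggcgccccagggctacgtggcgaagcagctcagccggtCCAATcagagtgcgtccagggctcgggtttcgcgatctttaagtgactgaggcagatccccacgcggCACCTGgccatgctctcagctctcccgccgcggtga
CD24: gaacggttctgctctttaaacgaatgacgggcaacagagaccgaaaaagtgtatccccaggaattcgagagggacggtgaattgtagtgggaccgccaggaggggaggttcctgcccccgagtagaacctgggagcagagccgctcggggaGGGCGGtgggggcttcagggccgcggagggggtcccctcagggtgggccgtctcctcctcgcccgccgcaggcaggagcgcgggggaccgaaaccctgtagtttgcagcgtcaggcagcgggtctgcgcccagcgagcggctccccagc
CD44: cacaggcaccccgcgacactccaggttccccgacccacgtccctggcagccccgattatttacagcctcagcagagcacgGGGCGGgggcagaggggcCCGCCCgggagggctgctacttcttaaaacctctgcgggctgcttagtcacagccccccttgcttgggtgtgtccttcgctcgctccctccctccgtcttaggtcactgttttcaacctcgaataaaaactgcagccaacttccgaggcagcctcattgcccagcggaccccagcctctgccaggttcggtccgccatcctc
The letters searched, on both strands, were GGGCGG (GC box), CAGGTG (the E-box bound by ZEB and SNAIL factors), TATAAA (bound by the general transcription machinery), CCAAT (bound by NF-Y) and TGANTCA (AP-1 site), and no matches overlapped in these 3 windows. The PROM1 window held 2 E-box matches and 1 CCAAT match, the CD24 window 1 GC box and the CD44 window 2 GC boxes. Of 35116 windows of 300 bases in the table, 45% held the GC box letters, 20.6% the E-box, 34.6% the CCAAT letters, 11.5% the TATAAA letters and 7.71% the AP-1 letters. A match is a description of the sequence and says nothing about binding in these cells.

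The lines differed first in which markers could be detected. PROM1 and probe 5090347 of CD24 were detected in 6 of 6 Capan-1 arrays and 0 of 6 MIA PaCa-2 arrays. The other CD24 probe, 610437, was detected in 6 of 6 Capan-1 arrays and 1 of 6 MIA PaCa-2 arrays. EPCAM was detected in 6 of 6 Capan-1 arrays and in 2 of 6 from MIA PaCa-2, both with sh1209. MET and the CD44 probes 4560193 and 5860152 were detected on all 12 arrays. The third CD44 probe, 360719, was close to the array medians in both lines, at deposited intensities of 92.9 to 108.2 and detected in 9 of 12 arrays.

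**Figure D1:**
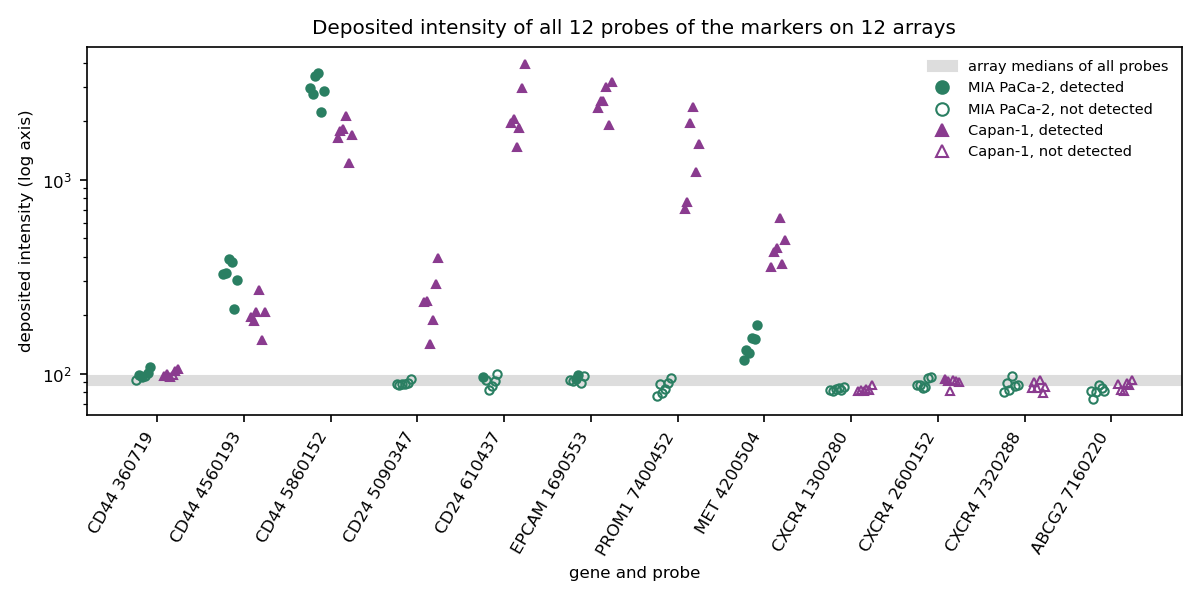
Deposited intensity (log axis) of the 12 probes of the 7 genes, with 1 symbol for each array, circles for MIA PaCa-2 and triangles for Capan-1, filled where the probe was detected at p under 0.05. The grey band spans the median intensities of the 12 arrays, 87.7 to 97. CXCR4 and ABCG2 lie in or near that band on every array, and CD24, EPCAM and PROM1 leave it in Capan-1.

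Between the controls of the lines, 7 of the 8 tested probes differed, beside 42.1% of all tested probes. PROM1 and both CD24 probes had met the detection filter only through their Capan-1 arrays, where they are high. For them the count and the p-values below are a description and no independent support for a line difference. Normalized log2 intensity, the scale of the levels below, is log2 after background correction and quantile normalization, and an offset of 16 in the correction understates the change of dim probes. EPCAM read 11.33 and 11.35 in the 2 Capan-1 shCtrl arrays and 4.55 and 4.42 in those of MIA PaCa-2. As EPCAM was not detected in either MIA PaCa-2 control, its ratio has only a bound, taken against the lowest signal among detected probes of each array, and it was at least 99.1-fold higher in Capan-1 (adjusted p = 9.6e-12, limma). By the same rule PROM1 was at least 27.4-fold higher in Capan-1 (adjusted p = 1.1e-11). Probe 5090347 of CD24 was at least 6.44-fold higher there (adjusted p = 3e-09). The other CD24 probe, detected in 1 of the 2 MIA PaCa-2 controls, read 11.07 and 11.01 in Capan-1 against 4.75 and 4.44, and since 1 of the latter was not above background, no exact ratio is given.

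MET was also higher in Capan-1, at 8.29 and 8.49 against 5.75 and 6.21, a 5.31-fold difference (adjusted p = 1.3e-07). CD44 ran the other way. Probe 5860152 read 11.38 and 11.43 in MIA PaCa-2 against 10.79 and 10.78 in Capan-1, which is 1.54-fold higher in MIA PaCa-2 (adjusted p = 0.0019). Probe 4560193 was 2.32-fold higher in MIA PaCa-2 (adjusted p = 1.7e-04). CD44 probe 360719 differed by 0.10, with a 95% interval of -0.24 to 0.45, and did not pass. With the controls alone, MIA PaCa-2 was the line with more CD44 RNA, and Capan-1 the line with CD24, EPCAM, PROM1 and more MET RNA.

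The epithelial marker genes moved with this difference. Of 18 epithelial markers, 16 were detected by their best probe in all 6 Capan-1 arrays and 5 in all 6 MIA PaCa-2 arrays. CDH1 (E-cadherin), CEACAM5, CEACAM6, CLDN3, GRHL2 and RAB25 were detected in 0 of 6 MIA PaCa-2 arrays. The summed deposited intensity of the 28 epithelial probes was 20896 to 22022 in the Capan-1 controls and 4397 to 4469 in those of MIA PaCa-2. Of 22 tested epithelial probes, 17 were higher and 1 lower in Capan-1, with a median log2 difference of 1.57 beside -0.04 over all tested probes. Mesenchymal markers showed no such one-sided split, with 5 of 15 tested probes higher and 6 lower in Capan-1. These calls cover 81.8% of the epithelial and 73.3% of the mesenchymal probes, beside 42.1% of all tested probes. The part of the epithelial state of each line in the marker levels was not tested. Of 12 leukocyte and endothelial markers, CD68 was detected on all arrays of each line, 7 were detected on no MIA PaCa-2 array and 5 on no Capan-1 array. PTPRC, the pan-leukocyte antigen, was detected in 1 of 12 arrays. Of 10 acinar and endocrine genes, the digestive enzyme gene PRSS1 alone was detected in all 6 Capan-1 arrays, and 0 were in all 6 from MIA PaCa-2.

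**Figure D2:**
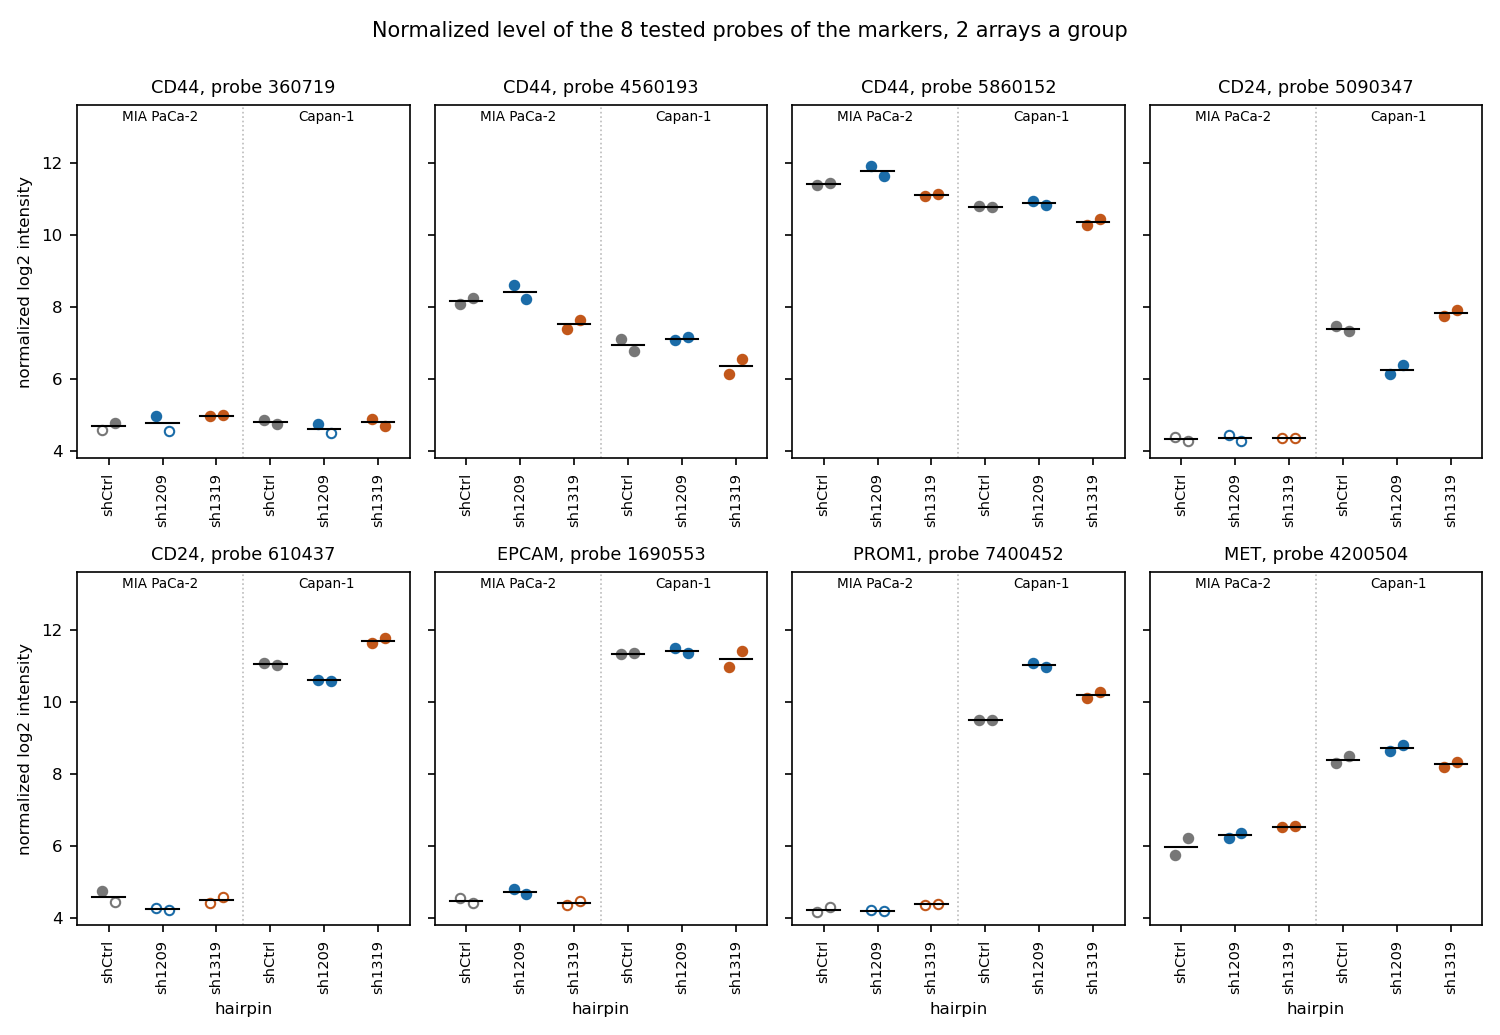
Normalized log2 intensity of the 8 tested probes in each of the 6 groups, with 1 circle for each array (open where not detected) and a line at the mean of the 2 arrays. In Capan-1, PROM1 lies higher with both FAK hairpins than with shCtrl, CD24 lies lower with sh1209 and higher with sh1319, and the 2 brighter CD44 probes are lowest with sh1319 in each line.

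PROM1 rose with both FAK hairpins in Capan-1. The shCtrl arrays read 9.49 and 9.49, the sh1319 arrays 10.10 and 10.27, and the sh1209 arrays 11.07 and 10.97, on the normalized log2 scale. Each hairpin group lay wholly above shCtrl, and sh1209 lay wholly above sh1319. The deposited intensities before any correction were 702.7 and 769.2 with shCtrl, 1089.0 and 1532.2 with sh1319, and 1959.2 and 2363.1 with sh1209. The rise was 2.90-fold with sh1209 (log2 1.54, 95% interval 1.29 to 1.79, adjusted p = 4.3e-06) and 1.62-fold with sh1319 (log2 0.70, interval 0.45 to 0.95, adjusted p = 0.0021). The hairpins differed from each other by 0.84 (adjusted p = 6.9e-04). With bulk RNA, a rise in the share of PROM1-expressing cells and a rise of PROM1 RNA in each cell cannot be told apart. By PTK2 probe 450253, the lower PTK2 RNA was in the sh1319 group, which had the smaller PROM1 difference. The dimmer PTK2 probe, 2680750, gave -0.46 with each hairpin in Capan-1 and so no order. The relation of PROM1 to the extent of the knockdown was not tested.

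In MIA PaCa-2 the PROM1 probe stayed under detection in all 6 arrays, at normalized levels of 4.16 to 4.40, so no change could be read there. The hairpin effect averaged over sh1209 and sh1319 differed between the lines by -1.05 (MIA PaCa-2 minus Capan-1, interval -1.36 to -0.75, adjusted p = 4.3e-04), a difference that rests on Capan-1, since the probe was under detection in MIA PaCa-2. Across all 4 differences from shCtrl, PROM1 averaged 0.59 higher with FAK hairpins (adjusted p = 9.7e-05), an average of 1.54 and 0.70 in Capan-1 with -0.02 and 0.15 from the undetected probe in MIA PaCa-2. It was the 1 probe of the 8 that passed in this combined comparison, beside 25.2% of all tested probes. It was also the 1 probe of the 8 that passed in the comparison of responses between the lines, beside 14.4% of all. The 4 comparisons with a control share the shCtrl arrays of their line.

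CD24 moved in opposite directions with the 2 hairpins in Capan-1. Probe 610437 read 11.07 and 11.01 with shCtrl, 10.62 and 10.57 with sh1209 and 11.63 and 11.76 with sh1319. The 3 groups did not overlap, in the order sh1319, shCtrl, sh1209. The fall with sh1209 was -0.44 on the log2 scale (interval -0.73 to -0.16, adjusted p = 0.037), and the rise with sh1319 was 0.66 (interval 0.37 to 0.94, adjusted p = 0.0062). The dimmer probe, 5090347, took the same order, with 6.13 and 6.38 for sh1209, 7.46 and 7.33 for shCtrl, and 7.75 and 7.91 for sh1319. It was 2.21-fold lower with sh1209 (adjusted p = 1.3e-04) and 1.35-fold higher with sh1319 (adjusted p = 0.047). Between the hairpins, CD24 was 2.14-fold lower by probe 610437 and 2.98-fold lower by probe 5090347 with sh1209 than with sh1319 (adjusted p = 2.5e-04 and 1.7e-05).

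The CD24 difference between the hairpins held with any array left out, and the differences from shCtrl held less well. The rise of probe 5090347 with sh1319 kept its direction but ended as a call without any 1 of 10 arrays, all but the 2 Capan-1 sh1209 arrays (log2 0.36 to 0.52, adjusted p of 0.051 to 0.22). The fall of probe 610437 with sh1209 ended as a call without any 1 of the 4 Capan-1 shCtrl and sh1209 arrays, or without MIA PaCa-2 sh1209 replicate 1 (-0.47 to -0.41, adjusted p of 0.051 to 0.16). The sh1319 call of probe 5090347 also ended with quantile normalization within each line, the replicate block or a fit of 1 line. That of probe 610437 with sh1209 also ended under median scaling. RefSeq lists 5 CD24 pseudogenes, and which copies the 2 probes bind was not tested, since probe sequences were not used here. In MIA PaCa-2 the CD24 probes read 4.23 to 4.75 in all 6 arrays and passed in neither hairpin comparison.

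CD44 was lowest with sh1319 and highest with sh1209 in each line by its 2 brighter probes. In MIA PaCa-2, probe 5860152 read 11.92 and 11.63 with sh1209, 11.38 and 11.43 with shCtrl, and 11.07 and 11.14 with sh1319. In Capan-1 it read 10.95 and 10.82 with sh1209, 10.79 and 10.78 with shCtrl, and 10.27 and 10.44 with sh1319. After normalization the groups had the same order in both lines and did not overlap. The step from shCtrl to sh1209 was small in Capan-1. In deposited intensity the shCtrl and sh1319 arrays overlapped in each line. They read 2977.3 and 2766.2 against 2232.6 and 2865.8 in MIA PaCa-2, and 1628.7 and 1783.2 against 1212.8 and 1689.9 in Capan-1. The difference between the hairpins was 1.59-fold in MIA PaCa-2 (log2 0.67, interval 0.39 to 0.95, adjusted p = 0.0025) and 1.45-fold in Capan-1 (log2 0.53, interval 0.25 to 0.81, adjusted p = 0.02). Neither call held under median scaling of the arrays.

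Probe 4560193 of CD44 showed the same order of group means with more spread. Its values in MIA PaCa-2 were 8.60 and 8.22 with sh1209, 8.07 and 8.24 with shCtrl, and 7.38 and 7.65 with sh1319. Those in Capan-1 were 7.08 and 7.16, then 7.10 and 6.79, then 6.15 and 6.56. After normalization the sh1319 arrays lay below all others of their line, and the sh1209 and shCtrl arrays overlapped in each line. In deposited intensity the Capan-1 sh1319 arrays read 149.2 and 207.2, beside 196.4 and 186.2 with shCtrl, and so overlapped. CD44 by this probe was 1.85-fold higher with sh1209 than with sh1319 in MIA PaCa-2 (adjusted p = 0.0037) and 1.70-fold higher in Capan-1 (adjusted p = 0.019).

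Against shCtrl, 1 CD44 probe passed in each line with sh1319, and not the same one. Probe 4560193 was 1.56-fold lower with sh1319 in MIA PaCa-2 (adjusted p = 0.024), where probe 5860152 gave -0.30 (interval -0.58 to -0.02, adjusted p = 0.12). Probe 5860152 was 1.35-fold lower with sh1319 in Capan-1 (adjusted p = 0.046), where probe 4560193 gave -0.59 (adjusted p = 0.053). With sh1209 the differences of both probes from shCtrl were 0.10 to 0.37 and none passed. The Capan-1 call ended without any 1 of 10 arrays, all but the 2 MIA PaCa-2 sh1209 arrays (log2 -0.52 to -0.35), and the MIA PaCa-2 call ended without sh1319 replicate 1 (-0.50) or shCtrl replicate 2 (-0.55). Both sh1319 calls also ended under median scaling, and the Capan-1 call with the replicate block or a fit of 1 line. In Capan-1 the calls between hairpins ended for both CD44 probes without either sh1209 array or without sh1319 replicate 1 (log2 0.45 to 0.81). They ended under median scaling as well.

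CD44 probe 360719 read 4.49 to 5.0 over all 12 arrays and passed in 0 of the 9 comparisons. Its difference between the hairpins was -0.21 (MIA PaCa-2) and -0.17 (Capan-1), opposite in sign to the brighter CD44 probes, with intervals of -0.55 to 0.14 and -0.52 to 0.17. The probes of CD44 may lie in different transcripts, and the table does not say which. ESRP1, a splicing factor known to act on CD44 RNA and named here after its values were seen, was listed under its older name RBM35A and was detected in 6 of 6 Capan-1 arrays and 0 of 6 MIA PaCa-2 arrays.

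EPCAM showed no difference past the threshold between hairpins within either line. In Capan-1 it read 11.33 and 11.35 with shCtrl, 11.49 and 11.35 with sh1209, and 10.97 and 11.40 with sh1319, and the groups overlapped. The intervals of its log2 difference from shCtrl were -0.24 to 0.40 for sh1209 and -0.47 to 0.17 for sh1319, which leaves room for changes of that size. In MIA PaCa-2, the sh1209 arrays read 4.80 and 4.66 and were the only ones with EPCAM detected, and the difference from shCtrl was 0.24 (adjusted p = 0.31).

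MET rose with sh1319 in MIA PaCa-2. The arrays read 5.75 and 6.21 with shCtrl, 6.22 and 6.37 with sh1209, and 6.52 and 6.55 with sh1319. The shCtrl arrays were the lowest and also the most spread. MET was 1.47-fold higher with sh1319 (log2 0.55, interval 0.21 to 0.90, adjusted p = 0.022) and differed by 0.31 with sh1209 (adjusted p = 0.21). The call ended without shCtrl replicate 1 (log2 0.32, adjusted p = 0.18) and without either sh1319 array (0.57 and 0.54, adjusted p of 0.082 and 0.09). In Capan-1, MET read 8.29 and 8.49 with shCtrl, 8.65 and 8.81 with sh1209, and 8.2 and 8.34 with sh1319, and neither hairpin passed, with differences of 0.34 (adjusted p = 0.18) and -0.12 (adjusted p = 0.71).

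**Figure D3:**
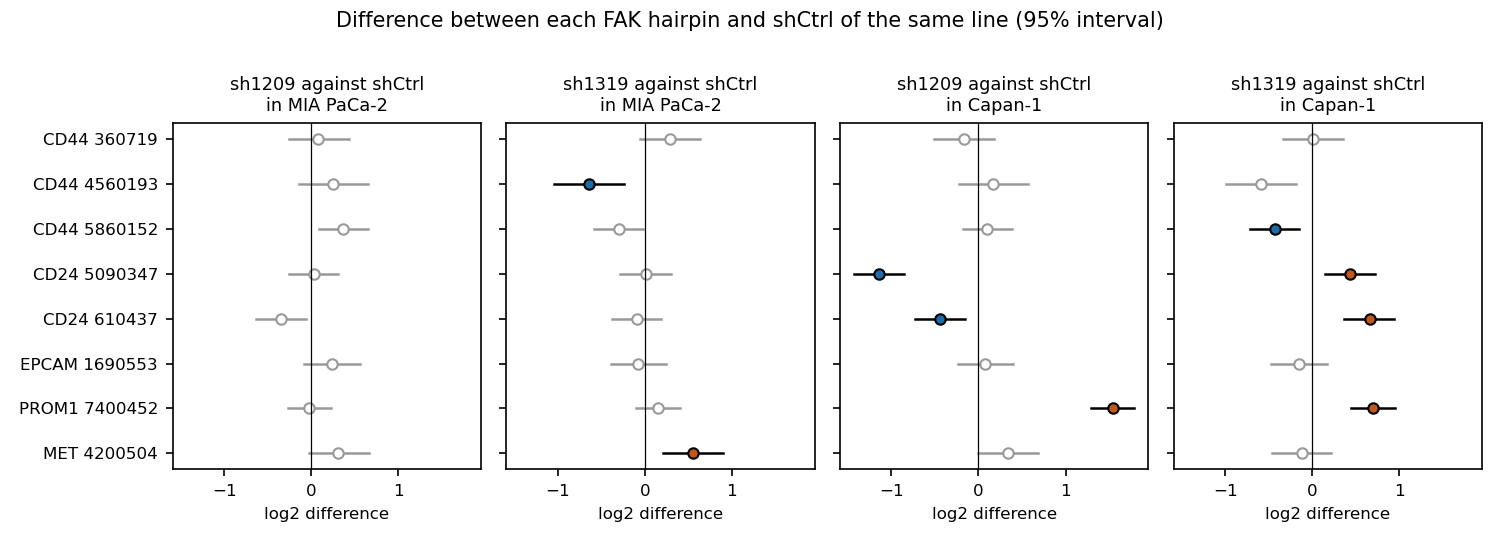
Log2 difference of each tested probe from shCtrl of the same line, with its 95% interval, in the 4 hairpin comparisons. Filled points passed an adjusted p of 0.05, orange for higher and blue for lower, and open points did not. PROM1 and CD24 stand out in Capan-1, and in MIA PaCa-2 the calls are CD44 probe 4560193 and MET with sh1319.

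The number of markers that passed differed between the lines and hairpins, and that difference was not tested. With sh1209 in MIA PaCa-2, 0 of 8 passed, beside 18.0% of all tested probes. At an unadjusted p under 0.05 there were 2, and the plain test of the methods called 0. With sh1319 in MIA PaCa-2, 2 of 8 passed, CD44 lower and MET higher, beside 24.3% of all. In Capan-1, 3 of 8 passed with sh1209 (PROM1 higher and CD24 lower by both probes), beside 16.8%. With sh1319 in Capan-1, 4 of 8 passed (PROM1 higher, CD24 higher by both probes and CD44 lower by 1), beside 13.7%. Between the hairpins, 2 of 8 differed in MIA PaCa-2, both of CD44, beside 22.6% of all, and 5 of 8 in Capan-1, 2 each of CD44 and CD24 and 1 of PROM1, beside 11.3%. The 8 probes come from 5 genes, so probes of 1 gene count repeatedly. The methods' plain test on 2 arrays against 2 called none of these hairpin differences.

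CXCR4 and ABCG2 gave no usable signal. The 3 CXCR4 probes read 79.6 to 97.5 in deposited intensity over the 12 arrays, and ABCG2 read 74.3 to 93.1, against array medians of 87.7 to 97. Over these 4 probes and 12 arrays, 1 reading counted as detected, CXCR4 probe 2600152 in Capan-1 shCtrl replicate 1, at an intensity of 93.3. When every probe was tested with no filter, each of the 4 probes passed in 0 of 9 comparisons, with lowest unadjusted p of 0.54, 0.04 and 0.11 for the CXCR4 probes and 0.14 for ABCG2. At this signal a difference in CXCR4 or ABCG2 RNA was not detectable, which does not show that the RNA was absent.

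The genes whose pattern was most like that of each marker were sought over the 12 arrays, with each line centred on its own mean and the brightest probe standing for each of 19088 genes. For PROM1 the closest were SGK1, a serum- and glucocorticoid-induced kinase (r = 0.986), LTB, lymphotoxin beta (0.985), and CXCL6, a neutrophil chemokine (0.983). For CD24 they were ZCCHC7, PILRB and SEC22A (0.953, 0.952 and 0.949). For CD44 they were ARL6IP1, C2ORF56 and SLC35F5 (0.956, 0.953 and 0.949). MET was nearest to SMYD2, ISG20 and MYO5A (0.922, 0.901 and 0.885), and EPCAM to DNM1L, SNX7 and TXNL2 (0.916, 0.893 and 0.88). These values describe 12 arrays in 6 groups that share a chip and a normalization, and as the highest among all genes they were picked to be high.

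The partners of the markers were described from gene lists, by their tested probes. In the hyaluronan and CD44 list of 17 genes (21 tested probes), 3 probes rose and 0 fell with sh1209 in MIA PaCa-2, and 6 rose and 3 fell with sh1319. In Capan-1, 5 rose and 3 fell with sh1209, and 2 rose and 4 fell with sh1319. That is 14.3%, 42.9%, 38.1% and 28.6% of the list, beside 18.0%, 24.3%, 16.8% and 13.7% of all tested probes in the same order, and its median log2 difference lay between -0.01 and 0.10. HAS3, a hyaluronan synthase, rose in MIA PaCa-2 by probe 6980612, from 4.79 and 4.64 with shCtrl to 7.47 and 7.16 with sh1209 and 10.15 and 10.04 with sh1319. All 4 hairpin arrays lay above the controls, and the group means differed by 2.60 (adjusted p = 4.4e-07) and 5.38 (adjusted p = 1.1e-09) on the log2 scale. As 1 of the 2 shCtrl arrays did not detect this probe, the size of these differences is not exact. The other HAS3 probe, 380504, was detected in MIA PaCa-2 with sh1319 alone and was at least 1.84-fold higher there. CD74, the invariant chain that pairs with CD44 as receptor for the cytokine MIF, rose in Capan-1. Its probe 1240070 went from 4.29 and 4.97 with shCtrl to 8.49 and 8.53 with sh1209 and 7.03 and 7.07 with sh1319, and probe 7040008, not detected in the controls, was at least 6.97-fold and 2.98-fold higher. HMMR, another hyaluronan receptor and a gene of the mitotic spindle, fell by both probes under sh1319 in MIA PaCa-2, by -0.76 and -1.0, and under each hairpin in Capan-1 (-0.68 to -0.52). For sh1209 in Capan-1 both HMMR calls ended without Capan-1 shCtrl replicate 2 or sh1209 replicate 2 (-0.58 to -0.50), and that of probe 4060064 also without either replicate 1 (-0.49 and -0.47).

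**Figure D4:**
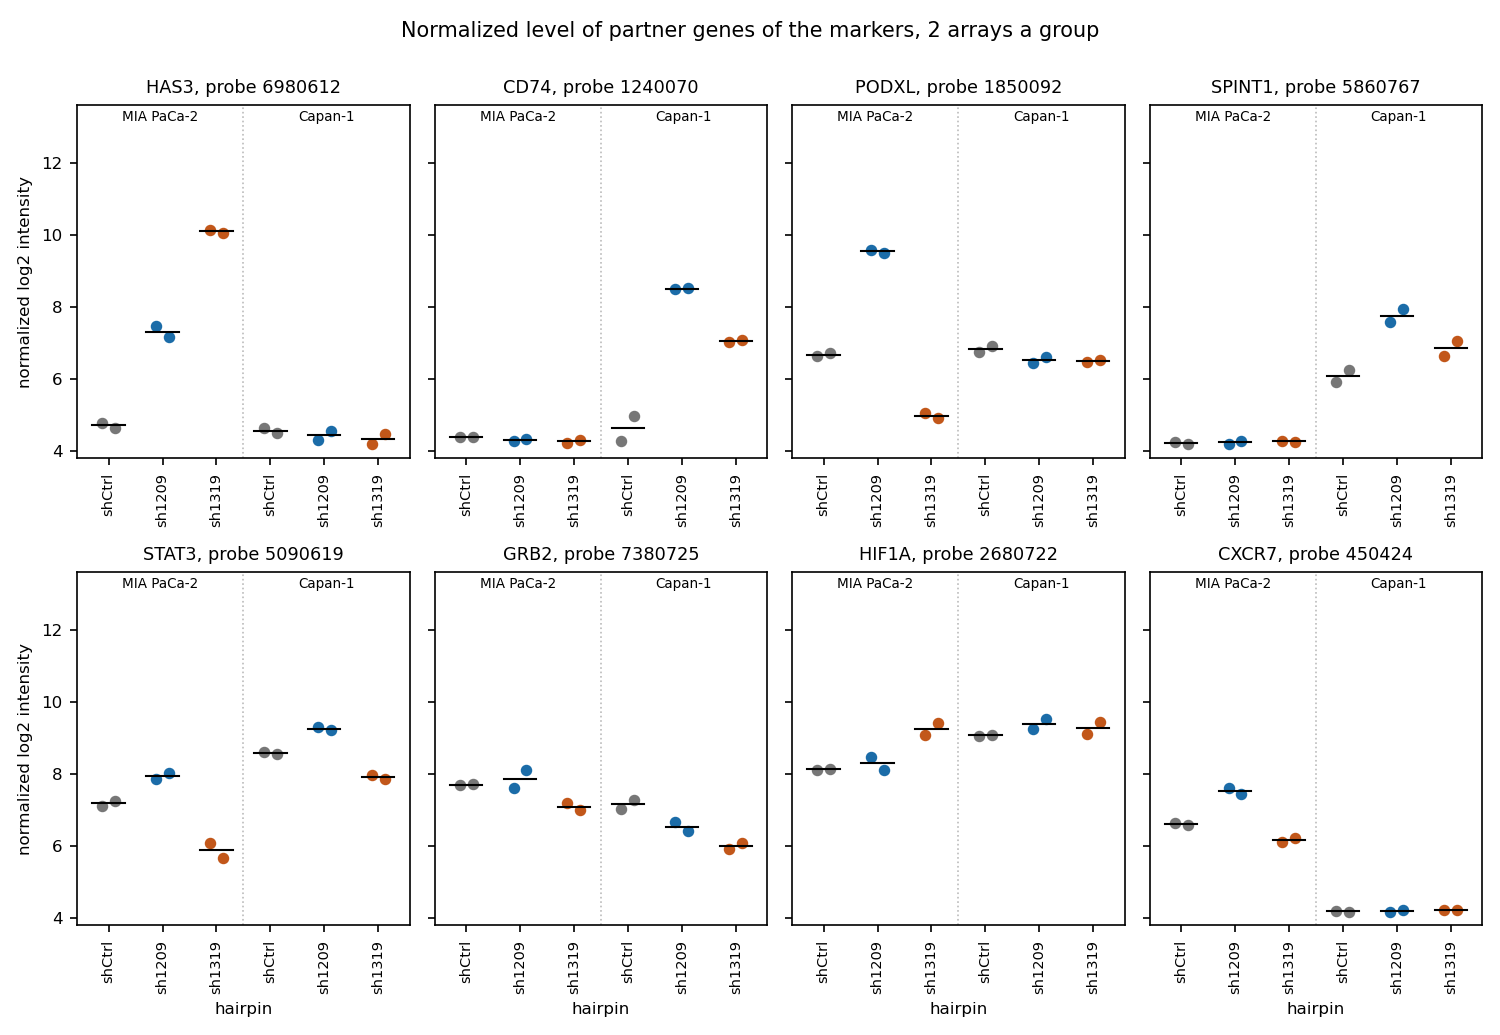
Normalized log2 intensity of 8 probes of partner genes in the 6 groups, with 1 circle for each array, detected or not, and a line at the mean of the 2 arrays. HAS3 rises with both hairpins in MIA PaCa-2, CD74 and SPINT1 rise with both in Capan-1, and STAT3 is above shCtrl with sh1209 and below it with sh1319 in each line.

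Among 8 CD24 ligands and partners (7 tested probes), 3 rose and 1 fell with sh1209 and 2 rose and 2 fell with sh1319 in MIA PaCa-2, against 1 rise and 0 falls with sh1209 and 0 of either with sh1319 in Capan-1. These are 57.1% of the list for each hairpin in MIA PaCa-2, beside 18.0% and 24.3% of all, and 14.3% and 0% in Capan-1, beside 16.8% and 13.7%. SIGLEC10, the inhibitory receptor that reads CD24, was detected in 0 of 12 arrays. PODXL, a sialomucin of the CD34 family, moved in opposite directions with the hairpins in MIA PaCa-2 by its brighter tested probe. The other tested probe, 6330576, also rose with sh1209, from 4.9 and 4.44 with shCtrl to 6.61 and 6.56. It was not detected with sh1319, so the fall with sh1319 rests on probe 1850092. Probe 1850092 read 6.64 and 6.71 with shCtrl, 9.59 and 9.50 with sh1209, and 5.06 and 4.91 with sh1319, differences of 2.87 and -1.69 (adjusted p = 3.2e-08 and 1.5e-06). LYN, a SRC family kinase that signals from CD24 rafts, rose with sh1209 in both lines (0.89 for MIA PaCa-2, 0.92 for Capan-1) and, for sh1319, in MIA PaCa-2 (0.55, not called without MIA PaCa-2 sh1319 replicate 1). In Capan-1, sh1319 gave 0.34 for LYN (adjusted p = 0.091). SELE, an endothelial selectin, was near background and was at least 1.33-fold higher with sh1319 in MIA PaCa-2.

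The 11 genes of the EPCAM complex and its cleavage (19 tested probes) had 1 rise and 2 falls with each hairpin in MIA PaCa-2, 4 rises and 0 falls with sh1209 in Capan-1, and 2 rises and 4 falls with sh1319 there. That is 15.8% for each hairpin in MIA PaCa-2, beside 18.0% and 24.3% of all, and 21.1% and 31.6% in Capan-1, beside 16.8% and 13.7%. SPINT1, an inhibitor of the proteases matriptase and HGF activator, rose in Capan-1 by probe 5860767, from 5.91 and 6.26 with shCtrl to 7.58 and 7.93 with sh1209 and 6.65 and 7.06 with sh1319. The differences were 1.67 (adjusted p = 5.2e-05) and 0.77 (adjusted p = 0.011), and the latter ended as a call without Capan-1 shCtrl replicate 1 (0.60) or sh1319 replicate 2 (0.57). FHL2, an adaptor that binds the cleaved tail of EPCAM, fell by both probes with each hairpin in MIA PaCa-2 (-0.77 to -0.37) and with sh1319 in Capan-1 (-0.45 and -0.62). The brighter FHL2 probe, 990288, lost its call without any 1 of 11 arrays for sh1209 in MIA PaCa-2, without either shCtrl array or sh1319 replicate 2 for sh1319 there (-0.44 to -0.37), and without any 1 of the 4 shCtrl and sh1319 arrays in Capan-1 (-0.49 to -0.42). In Capan-1 the other probe, 6110025, gave -0.57 and an adjusted p of 0.05 without shCtrl replicate 2.

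In the HGF and MET list of 15 genes (16 tested probes), sh1319 lowered 9 probes and raised 0 in MIA PaCa-2, which is 56.2% of the list beside 24.3% of all, with a median log2 difference of -0.39 beside -0.01. Of these 9 probes, 7 belong to 3 genes, STAT3, GRB2 and CBL. With sh1209 in MIA PaCa-2, 4 rose and 1 fell (31.2% of the list, beside 18.0% of all). In Capan-1, 3 rose and 1 fell with sh1209 (25%, beside 16.8%), and 2 rose and 4 fell with sh1319 (37.5%, beside 13.7%). HGF itself was detected in 0 of 12 arrays by its 3 probes. STAT3, a transcription factor downstream of MET, had 3 tested probes, each above shCtrl with sh1209 and below it with sh1319. By probe 5090619 it read 7.10 and 7.26 with shCtrl, 7.86 and 8.04 with sh1209, and 6.09 and 5.68 with sh1319 in MIA PaCa-2. In Capan-1 it read 8.62 and 8.56, then 9.30 and 9.22, then 7.96 and 7.87. By this probe STAT3 with sh1209 exceeded STAT3 with sh1319 by 4.19-fold (MIA PaCa-2) and 2.54-fold (Capan-1) (adjusted p = 1.6e-06 and 1.3e-04), the same order of groups as CD44. Its Capan-1 differences from shCtrl by this probe, 0.67 with sh1209 and -0.68 with sh1319, were not called without 1 of 2 arrays each: sh1209 replicate 1 (0.63) or shCtrl replicate 2 (0.64), and shCtrl replicate 1 (-0.65) or sh1319 replicate 2 (-0.64).

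GRB2, the adaptor that links MET to RAS, fell with sh1319 in MIA PaCa-2 by both probes (-1.28 and -0.61). With sh1319 in Capan-1, its probe 7380725 fell (-1.16, adjusted p = 0.0011) and probe 940039 gave -0.36 (adjusted p = 0.18). Probe 7380725 was also called lower with sh1209 in Capan-1, at a mean of 6.53 against 7.15 with shCtrl. That call ended without either shCtrl array or either sh1209 array (-0.74 to -0.50). Probe 940039 had means of 5.75 with sh1209 and 5.45 with shCtrl there. The fall of probe 7380725 in MIA PaCa-2 ended as a call without either shCtrl array or sh1319 replicate 2 (-0.62 to -0.52). CBL, the ubiquitin ligase that sends MET to degradation, fell with sh1209 and sh1319 in MIA PaCa-2 by probe 6960209 (-1.09 and -1.21) and did not pass in Capan-1 (-0.15 and 0.26). In each MIA PaCa-2 hairpin group 1 of 2 arrays detected this probe, so its differences there are not exact. CBL probe 4120037 had MIA PaCa-2 means of 5.54 with shCtrl, 5.11 with sh1209 and 4.88 with sh1319. Its sh1319 call ended without shCtrl replicate 2, sh1319 replicate 1 or either sh1209 array (-0.68 to -0.48).

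CXCL12, the ligand of CXCR4, was detected in 1 of 12 arrays. Among 12 genes of this axis (17 tested probes), 3 rose and 1 fell with sh1209 and 5 rose and 4 fell with sh1319 in MIA PaCa-2. Capan-1 had 1 rise and 1 fall for sh1209 and 1 rise for sh1319. The shares were 23.5% and 52.9% in MIA PaCa-2, beside 18.0% and 24.3% of all, and 11.8% and 5.88% in Capan-1, beside 16.8% and 13.7%. ACKR3, the alternative CXCL12 receptor and listed under its older name CXCR7, was detected in MIA PaCa-2 and in no Capan-1 array. By probe 450424 of CXCR7 the arrays read 6.65 and 6.57 with shCtrl, 7.60 and 7.43 with sh1209, and 6.12 and 6.22 with sh1319, with differences of 0.91 (adjusted p = 1.9e-04) and -0.44 (adjusted p = 0.014). The latter ended as a call without MIA PaCa-2 shCtrl replicate 1 (-0.40) or sh1319 replicate 1 (-0.39). HIF1A, a transcription factor of the hypoxia response known to act on CXCR4, rose in MIA PaCa-2 under sh1319 by its 3 tested probes (1.11 to 1.43). GNAI2, a G protein subunit coupled to CXCR4, rose with sh1319 in MIA PaCa-2 (0.97) and with each hairpin in Capan-1 (0.72 and 0.84). For sh1209 in Capan-1 the value without shCtrl replicate 2 was 0.47 and did not pass.

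ABCG2 belongs to the ATP-binding cassette family, of which 11 other efflux transporters were listed (15 tested probes). ABCB1, which encodes P-glycoprotein, was detected in 0 of 12 arrays. In MIA PaCa-2, 3 probes rose and 3 fell with sh1209 and 4 rose and 1 fell with sh1319. In Capan-1, 2 rose and 1 fell with sh1209 and 2 rose with sh1319. These are 40% and 33.3% of the list (18.0% and 24.3% of all), then 20% and 13.3% (16.8% and 13.7% of all). ABCC2, an exporter of conjugated drugs, rose in MIA PaCa-2 from 6.44 and 6.55 to 7.80 and 7.81 with sh1209 and to 7.27 and 7.24 with sh1319 (adjusted p = 7.8e-06 and 3e-04). It was detected in no Capan-1 array. ABCA3, a lipid transporter, rose with both hairpins in MIA PaCa-2 (0.90 and 1.04). The 2 named probes of ABCC5 went opposite ways with sh1319 in MIA PaCa-2, at 1.55 and -1.74, so no direction is given for that gene.

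Other genes used to mark pancreatic CSCs (18 genes, 19 tested probes) had, in Capan-1, 7 rises and 1 fall for sh1209 and 8 rises and 0 falls for sh1319, or 42.1% of the list each, beside 16.8% and 13.7% of all. In MIA PaCa-2 there were 5 rises and 1 fall with sh1209 and 5 rises and 4 falls with sh1319, 31.6% and 47.4% of the list beside 18.0% and 24.3% of all. ALDH1A1, the aldehyde dehydrogenase behind a common CSC assay, rose with both hairpins in MIA PaCa-2 by both probes (1.85 to 2.67) and with sh1319 in Capan-1 (1.48 and 1.76). With sh1209 in Capan-1 its probes gave 0.40 (adjusted p = 0.11) and 0.36 (adjusted p = 0.044), and the latter was not called without any 1 of 10 arrays. EPHA2, an ephrin receptor, fell with both hairpins in MIA PaCa-2 (-0.61 and -1.32) and rose with sh1209 in Capan-1 (0.56). Both EPHA2 calls with sh1209 ended without 1 of 3 arrays of their line, and the values then ran from -0.63 to -0.46 in MIA PaCa-2 (without either shCtrl array or sh1209 replicate 1) and from 0.43 to 0.67 in Capan-1 (without either sh1209 array or shCtrl replicate 2). BMI1, a Polycomb protein of self-renewal, rose with sh1319 in MIA PaCa-2 (1.0) and fell with sh1209 in Capan-1 (-0.73), a fall that ended as a call without Capan-1 sh1209 replicate 1 (-0.64) or shCtrl replicate 2 (-0.57).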

How the data were processed

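Gene expression was measured in 12 samples of MIA PaCa-2 and Capan-1 cells, 2 arrays for each of 6 groups taken from the sample labels. The authors deposited, for each array, linear probe intensities and detection p-values that had not been normalized, and the submitters' processing notes name GenomeStudio 2011.1. The table holds 47320 lines, 92 of them spike-in controls, and 28 columns without values.

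Starting from the deposited intensities, limma's nec function (normexp, offset 16) removed background, and quantile normalization and log2 followed. A probe was tested where at least 2 arrays detected it at p under 0.05 (24207 of 47228), with limma 3.58.1 in R 4.3.3 (lmFit and eBayes on 6 group means, 6 residual degrees of freedom). Within each of 9 comparisons, Benjamini-Hochberg adjustment ran over all tested probes, with a threshold of 0.05. For the combined comparison the 4 differences from shCtrl were averaged. Arrays give no read depth, and their number limits the precision. The script was first tested on simulated data. Probes of different genes were not compared in level.

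The markers and lists were chosen with earlier results of these data known. All probes of the 7 markers are given, with PTK2, and from each list up to 3 genes with the largest absolute log2 change among those past the threshold in any of the 4 comparisons with shCtrl. SIGLEC10, HGF, CXCL12, ABCB1, ESRP1 and TAGLN were named outside this rule, after their values were seen. A gene that the rule names is not reported here. Genes are named as on the array. Lists are described by counts and medians, with no set test. Epithelial, mesenchymal, leukocyte and endothelial, and acinar and endocrine markers served to check the lines. The alternatives were no background correction, an offset of 50, median scaling, quantile normalization within each line, no filter, a stricter filter (detection p under 0.01 in at least 4 arrays), the replicate number as a block, array weights, a fit of 1 line, the methods' plain 2-sided test, and each array left out in turn. Promoter windows and gene positions are from RefSeq (GRCh38.p14).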

Additional observations from a re-analysis of the deposited data

Results flagged for a closer look

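PROM1 is marked for a difference between the lines under the same contrast. The mean effect of the FAK hairpins on its probe differed by -1.05 on the log2 scale, MIA PaCa-2 minus Capan-1 (adjusted p = 4.3e-04, interaction term in limma), and the probe was higher than shCtrl in 4 of 4 Capan-1 hairpin arrays. The probe was detected in 0 of 6 MIA PaCa-2 arrays, so MIA PaCa-2 had no measurable level that could have changed. The difference of -1.05 thus rests on the Capan-1 rise, and its p-value is no independent support for a difference between the lines. This difference lay between -1.16 and -0.98 over 19 alternatives.

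PTK2, the targeted gene, is marked for the same reason. Its brighter probe, 450253, fell further in the MIA PaCa-2 line, with a difference of -1.17 (adjusted p = 2.1e-04) and a range of -1.43 to -0.80 over 19 alternatives. The dimmer PTK2 probe, 2680750, had a difference of the opposite sign, 0.47 (interval 0.03 to 0.91, adjusted p = 0.15). The part of the difference at probe 450253 in the marker values was not tested.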

How the results depend on the processing

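No log2 value of a marker or PTK2 probe that passed the threshold changed sign under any alternative, and of 1734 values recomputed for these probes 1629 kept their side of the threshold, 71 lost it and 34 gained it. The PROM1 rises in Capan-1 held in 21 of 22 alternatives (1.45 to 1.62 for sh1209 and 0.61 to 0.83 for sh1319) and ended in the methods' plain test, which has 2 arrays against 2. That plain test took the count of marker probes called to 0 for sh1319 in MIA PaCa-2, both hairpins in Capan-1, and the hairpins against each other in each line (2, 3, 4, 2 and 5 otherwise). For sh1209 in MIA PaCa-2 the count went from 0 to 1 with no background correction, an offset of 50 or the stricter filter (CD44 probe 5860152). For sh1319 in MIA PaCa-2 it went from 2 to 1 with median scaling or a fit of 1 line. Median scaling gave 1 in place of 2 between the hairpins in MIA PaCa-2 and 3 in place of 5 in Capan-1. It also moved the median of all tested probes by 0.11 for sh1319 in Capan-1. In the combined comparison, MET joined PROM1 (2 in place of 1) with no background correction, an offset of 50, median scaling, the stricter filter or the replicate block. The cause of these changes was not tested.

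With 1 array left out, the counts ranged from 0 to 2 for sh1209 and 0 to 2 for sh1319 in MIA PaCa-2, 2 to 3 and 2 to 4 in Capan-1, 2 to 2 and 3 to 6 between the hairpins in MIA PaCa-2 and Capan-1, 7 to 7 between the lines, 1 to 2 combined and 1 to 1 for the response between the lines. The arm left with 1 array is assumed to vary like the others. The count for sh1209 in MIA PaCa-2 was 2 without MIA PaCa-2 shCtrl replicate 2 (CD24 probe 610437 and MET) and 1 without MIA PaCa-2 sh1209 replicate 2 (CD44 probe 5860152).

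After quantile normalization, the deviations of same-numbered arrays correlated at -0.061 to 0.16 over 15 pairs of groups. That normalization removes shifts of a whole array, so these values cannot show whether replicate sets shared such a shift. In deposited intensity, replicate 2 had the higher array median in each group, for example 97 against 92.8 in Capan-1 sh1319. With the replicate block, 2 of 8 marker probes were called for sh1319 in Capan-1 in place of 4, and 2 in place of 1 in the combined comparison. For the named partner genes, 0 values past the threshold changed sign, and 244 of 4176 recomputed values lost it.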

Other observations

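In the mesenchymal marker list (15 tested probes), 4 probes rose and 2 fell with sh1209 in MIA PaCa-2 and 6 rose and 1 fell with sh1319, or 40% and 46.7% of the list beside 18.0% and 24.3% of all tested probes. In Capan-1, 2 rose with sh1209 and 3 with sh1319 (13.3% and 20%, beside 16.8% and 13.7%), and none fell. COL1A2, a chain of type I collagen, read 6.13 and 6.07 with shCtrl by probe 6060612, 9.11 and 9.03 with sh1209 and 10.47 and 10.35 with sh1319, with log2 differences of 2.97 and 4.31 (adjusted p = 1.6e-08 and 7.1e-10). COL3A1, the type III chain, was not detected with shCtrl, and its lower bounds were an 8.26-fold rise for sh1209 and a 6.78-fold rise for sh1319. Those of ACTA2, smooth muscle actin, were 2.04-fold and 5.47-fold. ACTA2 was also higher in Capan-1, by 0.44 with sh1209 (adjusted p = 0.021) and 0.55 with sh1319 (adjusted p = 0.0078), both lost as calls without Capan-1 shCtrl replicate 2 (0.35 and 0.46), the former also without sh1209 replicate 1 (0.49) or 2 (0.39) and the latter without sh1319 replicate 1 (0.52). TAGLN, an actin-binding protein of smooth muscle, fell with sh1209 (-0.60 and -0.82) and rose with sh1319 (1.85 and 1.64) by its 2 probes in MIA PaCa-2. COL3A1 and probe 6060612 of COL1A2 were detected in no Capan-1 array, so no change could be read there.

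In the epithelial marker list (22 tested probes), 0 probes rose and 1 fell with sh1209 in MIA PaCa-2. With sh1319 there, 1 rose and 3 fell. These shares, 4.55% and 18.2%, lay below the 18.0% and 24.3% of all tested probes. In Capan-1, 6 rose and 1 fell with sh1209 (31.8%, beside 16.8%), and 2 rose and 1 fell with sh1319. The sh1319 share there was close to, and no higher than, the 13.7% of all tested probes. KRT19, CEACAM6 and KRT8 were named from this list by the size of their change. KRT19, a ductal keratin, fell in MIA PaCa-2 with both hairpins, from 6.05 and 6.02 to 4.81 and 4.38 with sh1209 and 4.85 and 4.26 with sh1319. There 1 of 2 arrays in each hairpin group still detected KRT19. In Capan-1 it gave -0.07 and -0.28, and neither passed. CEACAM6, a surface antigen of pancreatic carcinoma, rose in Capan-1 with sh1319 (1.35, adjusted p = 2.4e-05) and gave 0.11 with sh1209. KRT8 fell with sh1319 in MIA PaCa-2 (-1.09). PRSS1, a trypsinogen, read 6.52 and 6.31 with shCtrl in Capan-1, 7.97 and 7.89 with sh1209, and 5.74 and 5.61 with sh1319, the reverse of the order of CD24. Among the leukocyte and endothelial markers, CD68, a lysosomal protein, rose with sh1209 in MIA PaCa-2 (0.81), and PECAM1 rose with sh1209 in Capan-1 (0.57). VWF, not detected in the Capan-1 controls, was at least 1.24-fold higher with sh1209. The PECAM1 call ended without any 1 of 5 arrays.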
